A study of Bos taurus with 2 samples.

Results

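The genes described here encode the proteins of the large (60S) subunit of the cytosolic ribosome. Membership was set by symbol: a gene spot counted where its gene name in the array files was one of 45 listed symbols, from RPLP0 to RPL41. Probes were found for 44 of the 45 symbols, out of 17073 named genes on the array, and RPL41 had no probe under that symbol and is not analysed here. The 44 genes had 172 probes of 60 bases, between 1 and 8 a gene. The rule uses gene names and no measured value, but the list was chosen with earlier results of these data known.

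The large subunit joins amino acids in its peptidyl transferase centre and threads the new chain through an exit tunnel. Its proteins are made in near-equal numbers, and their messenger RNAs are among the most abundant of most cells, the secreting mammary epithelium included. Most of these RNAs are short, start with a pyrimidine tract that ties their translation to growth signals, and have many processed copies elsewhere in mammalian genomes.

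The study compared 2 fractions of whey from raw milk of Holstein cattle. The exosome sample was the material pelleted in a spin at 10000 g for 90 min and washed in 2 further spins, and the supernatant sample was the whey left above that pellet. RNA from 3 milks was combined in equal parts, 100 ng was labelled with the dye Cy3, and each fraction was read on 1 array, so each fraction is a pool and has no replicate. The stated speed is lower than is usual for small vesicles, while the labels call the step ultracentrifugation, so the speed may be misstated and what the pellet holds is uncertain. No animal's age, genotype or treatment is given in the labels. No test between fractions can be made, and no p-value is given. The only measured error is technical. Repeated spots of a probe gave exosome-minus-supernatant differences with an SD of 0.18 (log2, 9 probes on 4 spots each), and different probes of a large subunit gene gave an SD of 1.56 (32 genes). A probe was called detected where the scanner software flagged it as well above background. In bulk samples such as these, fewer vesicles or cells of a kind and less RNA in each cannot be told apart.

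Across the whole array 58.5% of probes were detected in the pellet and 13.1% in the supernatant. Of 9 genes listed as markers of mammary epithelium, the cells that secrete milk, 9 were detected in the pellet and 8 in the supernatant, and the median of the 8 was 6.03 above the median gene (log2, the scale explained below). They ranged from 0.86 (BTN1A1) and 1.76 (KRT8) to 7.80 (CSN3). Of 8 leukocyte markers 6 were detected in both fractions, with a median of -1.64 and a range of -2.83 to -0.18, and CD3E and ITGAM were detected in neither. Summed over the genes' mean signals, the epithelial list came to 1.17e+06 in the pellet and 9495 in the supernatant, and the leukocyte list to 3794 and 2058. Such sums are set by the brightest genes. LYZ, with log2 signals of 12.39 and 11.80, weighed most in the leukocyte sums. Of the epithelial genes measured on both arrays PAEP was the brightest in each fraction, at 17.91 and 10.19. The sums are therefore no measure of how much RNA came from each kind of cell. Whether RNA from either kind of cell had a part in the results for the ribosomal genes was not tested.

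The probes themselves decide much of what follows, so a few are shown first. The next 3 pairs set a probe at the end of a transcript beside one further upstream in the same transcript, since the 2 behaved differently in the supernatant. Of each end probe a window of 30 bases is shown, with AATAAA, the usual polyadenylation signal, in capitals. Each upstream probe is shown whole and in lower case.
RPLP0 end: gtgaaatgagaaAATAAAggcttacttctc
RPLP0 upstream: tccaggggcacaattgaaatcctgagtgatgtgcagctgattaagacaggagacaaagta
RPL17 end: tatgggcccgggAATAAAtgccgcaaaaaa
RPL17 upstream: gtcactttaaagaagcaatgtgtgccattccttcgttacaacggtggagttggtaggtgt
RPL29 end: gtgtcctcctgtgctatttgtacaAATAAA
RPL29 upstream: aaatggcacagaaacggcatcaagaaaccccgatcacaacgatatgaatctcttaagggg

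In build HGSC Btau_3.1, the build of the array's design, the RPLP0 probes lie on the minus strand at chr17:65830793-65830852 (end) and chr17:65832713-65832878 (upstream, at position 501 of the transcript). The RPL29 probes lie on the plus strand at chr22:49937346-49937405 (end) and chr22:49936015-49936074 (upstream). The RPL17 upstream probe lies on the minus strand at chr24:50821171-50821230, while its end probe was placed on another chromosome, at chr19:42546041-42546098 on the plus strand, where the design may have matched a copy of the gene. No annotation of that build was used here, so exons and untranslated regions are not assigned.

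A second pair, from RPL10, was printed in opposite orientations over the same stretch. The capitals mark the 49 bases of one that are the exact reverse complement of the capitals of the other.
RPL10 transcript orientation: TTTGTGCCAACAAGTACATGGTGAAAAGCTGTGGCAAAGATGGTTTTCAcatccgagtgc
RPL10 opposite orientation: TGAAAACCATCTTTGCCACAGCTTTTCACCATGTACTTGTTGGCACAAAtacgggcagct

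The last pair belongs to RPLP2, whose probes disagreed most: an upstream probe of the RefSeq transcript and a probe designed on an expressed sequence tag (a sequenced cDNA end).
RPLP2 upstream: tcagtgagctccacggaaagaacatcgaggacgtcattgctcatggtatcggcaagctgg
RPLP2 tag: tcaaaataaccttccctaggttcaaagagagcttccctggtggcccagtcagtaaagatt

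Large subunit transcripts were found in both fractions and were far brighter in the pellet. All 44 genes were detected in the pellet, where 66.5% of named genes were, and 42 were detected in the supernatant, where 22.2% of named genes were. By probe, 163 of the 172 were detected in the pellet and 122 in the supernatant, 41 in the pellet alone and 9 on neither array. No large subunit probe was detected in the supernatant alone. The 42 genes measured on both arrays by the same probe had log2 signals between 14.03 and 17.63 in the pellet (median 16.37) and between 3.61 and 8.97 in the supernatant (median 5.83). The 2 ranges do not overlap, but the arrays as a whole were shifted too. The median over the 3537 named genes measured on both was 8.77 in the pellet and 4.63 in the supernatant.

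Before scaling, the median large subunit gene differed by 10.01 (log2), a 1033-fold higher signal in the pellet. Most genes shared that direction: the median of the 3537 named genes measured on both arrays was 3.42, and 82.7% of them were at least 2-fold brighter in the pellet. Differences are therefore given relative to that median gene from here on, a scale that no constant scaling of an array changes. On it the 42 large subunit genes had a median of 6.59, with quartiles of 5.67 and 7.41 and a range of 3.41 to 8.98. Each of the 42 exceeded the median gene by 2-fold or more, against 37.7% of all measured genes. After each array was scaled to its 75th percentile over probes detected on both, all 42 were still at least 2-fold higher in the pellet, with a median of 4.56, against 18.4% of all measured genes. The pellet signal is itself a term of the difference, and these genes were bright there.

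**Figure D1:**
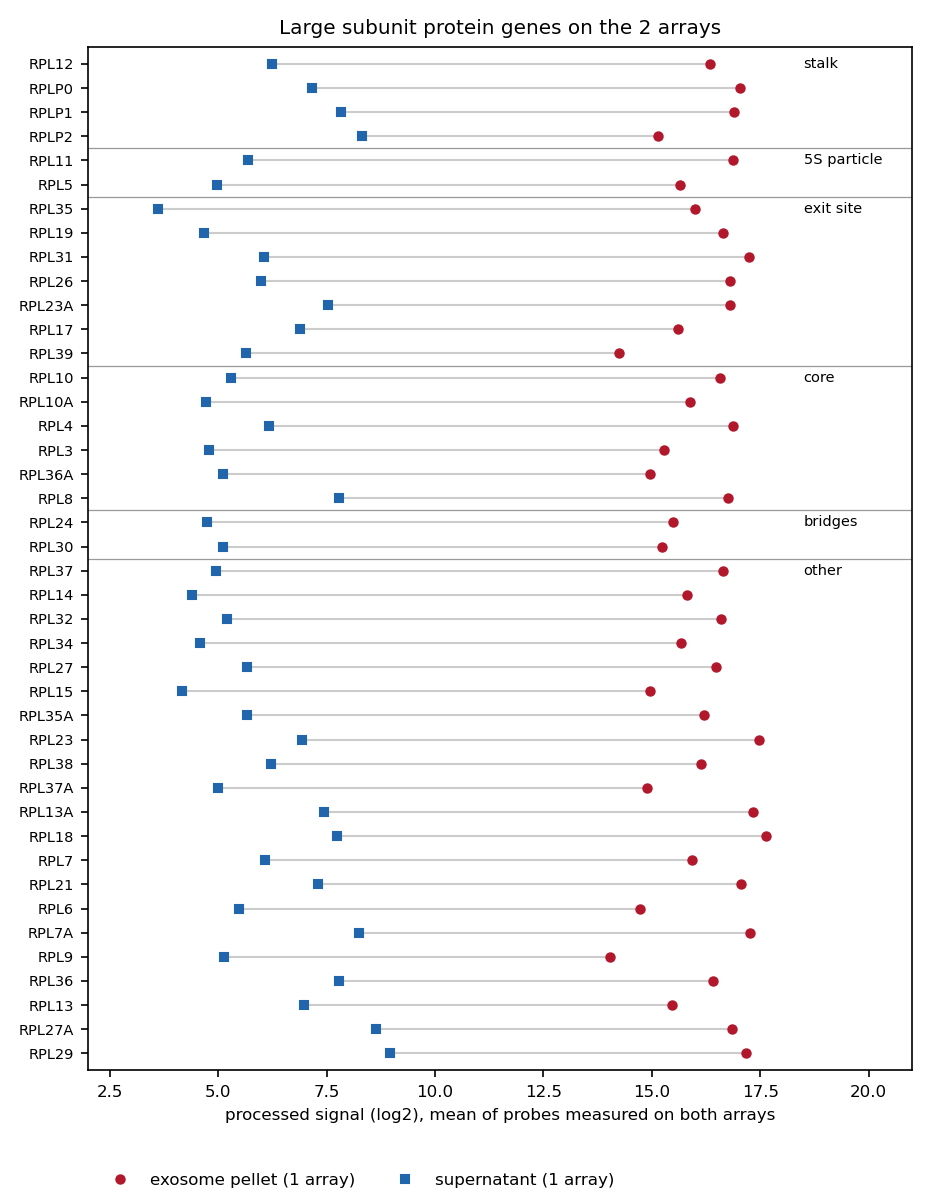
Log2 processed signal (horizontal axis) of each of the 42 large subunit genes measured on both arrays, by role; circles are the exosome pellet and squares the supernatant, each the mean over the gene's probes on 1 array. Every circle lies at 14.03 or above and every square at 8.97 or below.

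The stalk proteins, which recruit and activate the elongation factors, had the lowest median of the role groups. RPLP0, the anchor of the stalk, had mean log2 signals of 17.02 in the pellet and 7.16 in the supernatant and was 6.44 above the median gene. RPLP1, one of the acidic stalk tips, had 16.88 and 7.84 and was 5.62 above it. RPL12, at the base of the stalk, had 16.34 and 6.23 and was 6.69 above it. The 3 values lie within the SD between probes of a gene. RPLP2, the other acidic tip, had means of 15.15 and 8.32 and the smallest difference of all 42 genes, 3.41. That value comes from 1 probe of its 5. The 4 RefSeq probes gave unscaled differences of 8.35, 8.39, 8.50 and 9.92, while the tag probe shown above gave -1.01, with log2 signals of 9.26 in the pellet and 10.27 in the supernatant. It was the only one of the 122 large subunit probes measured on both arrays that was brighter in the supernatant. It lies at bases 146595 to 146654 of an unplaced sequence of that build, on the plus strand, opposite to the other RPLP2 probes. Without it and the other probes of opposite orientation the smallest difference among the 42 genes was 4.78.

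RPL5 and RPL11 bind the 5S ribosomal RNA and, outside the ribosome, hold back MDM2, the ubiquitin ligase of p53. RPL5, with 4 of 5 probes measured, had log2 signals of 15.64 and 4.96 and a relative difference of 7.26. RPL11, with its only probe, had 16.87 and 5.69 and a relative difference of 7.76. Both lay above the median of the 42 genes, by less than the SD between probes.

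The proteins around the exit of the tunnel, where chaperones and the signal recognition particle dock, held both the highest differences and some of the low ones. RPL35, a docking site for the signal recognition particle, was the highest at 8.98, with log2 signals of 16.003 and 3.61, and RPL19 the second at 8.56, with 16.65 and 4.67. RPL31 was 7.76 above the median gene, RPL26 7.41 and RPL23A, the other main contact of the particle, 5.86. RPL17, which reaches into the tunnel, stood at 5.29 and RPL39, which lines it, at 5.17. The order within this group rests on few probes. The RPL35 value rests on 1 of its 4 probes, whose supernatant signal of 12.19 before taking logs was close to the lowest detected there, 9.04. With the scanner's weaker detection flag, described below, RPL35 stood at 4.27, and with no filter on dim probes at 5.84. The RPL39 value falls with a probe of another accession, at 4.66 unscaled beside 10.05 and 11.06 for its RefSeq probes.

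RPL22 was in this group too and was not detected in the supernatant. Its probe at position 348 had log2 signals of 15.05 in the pellet and 2.77 in the supernatant, which sets the pellet at least 3748-fold higher before scaling. Its other probe, at position 580, had 6.84 and 0.97, which bounds the difference at 12.7-fold. The mean of its 2 log2 bounds gives at least 218-fold before scaling and 4.97-fold after 75th percentile scaling. RPL28 was the other gene detected in the pellet alone, at 15.15 against 1.35, at least 4011-fold higher before scaling and 91.4-fold after 75th percentile scaling. Its second probe, on a sequence tag, was detected on neither array. By the scanner's weaker flag, a signal that is positive and significant against background, all 44 genes were detected in the supernatant, RPL22 and RPL28 included. At 4 times the lowest detected signal 36 were. By these 2 rules 43 and 36 of the large subunit genes were measured on both arrays. Over all 17073 named genes 10106 and 1327 were, against 3537 by the main rule, so the counts move with the rule for all genes. A bound is the bright signal over the lowest supernatant signal with a detection flag, 9.04, or over the dim signal where that is higher.

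The proteins near the catalytic core and the tRNA sites ranged from 5.54 to 7.84, a narrower span than the 5.17 to 8.98 of the exit site. RPL10, which joins the subunit last and sits by the P site, was 7.84 above the median gene (16.56 in the pellet, 5.30 in the supernatant), and RPL10A, of the mobile L1 stalk, 7.74. RPL4, which lines the tunnel, was 7.28 above it, RPL3, beside the peptidyl transferase centre, 7.07, and RPL36A, at the E site, 6.42. RPL8, which holds the core of the subunit together, stood at 5.54. The RPL4 value rests on 1 of 6 probes and that of RPL3 on 3 of 7. Of the proteins that bridge to the small subunit, RPL24 was 7.35 above the median gene and RPL30 6.71. The role groups had medians of 6.03 (stalk), 7.51 (5S particle), 7.41 (exit site), 7.18 (core) and 7.03 (bridges), and 6.46 for the 21 other genes. These medians lie closer together than the SD of 1.56 between probes of a gene.

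Among the other genes RPL37 was the highest, at 8.28, and was the third of all 42, with log2 signals of 16.64 and 4.94. RPL14 (8.02) and RPL32 (7.99) followed. RPL32 was printed on 4 spots, which gave differences of 11.46, 11.38, 11.42 and 11.38 before scaling, an SD of 0.04. A single probe was thus far more repeatable than different probes of 1 gene. RPL29 (4.78) and RPL27A (4.80) were the lowest after RPLP2. Their mean log2 signals were 17.17 and 16.85 in the pellet and 8.97 and 8.63 in the supernatant.

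**Figure D2:**
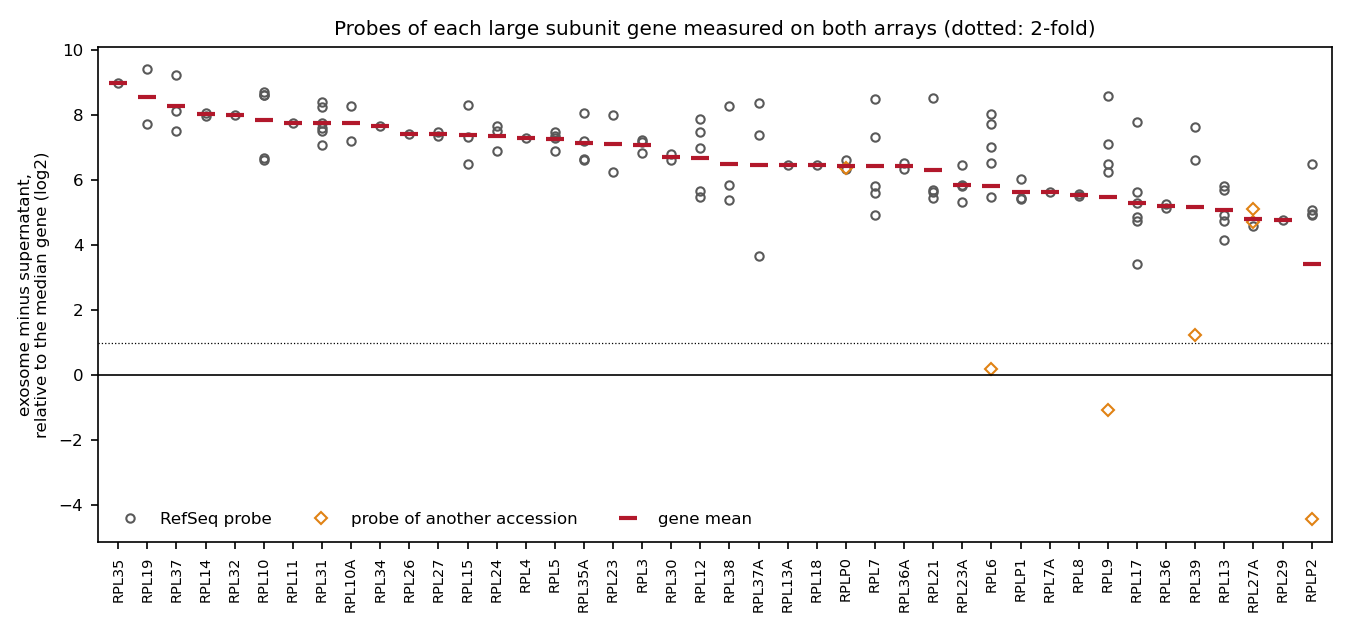
Exosome minus supernatant (log2, relative to the median gene) for each probe measured on both arrays, with the 42 genes in descending order of their mean; open circles are RefSeq probes, diamonds probes of other accessions, red bars gene means, and the dotted line is 2-fold. The diamonds of RPL6, RPL9 and RPLP2 lie at 0.18, -1.06 and -4.43, far from the other probes of those genes.

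Probes of 1 gene often disagreed. In 8 of the 42 genes the probes measured on both arrays spanned over 3 log2 units, and they were RPLP2, RPL6, RPL7, RPL9, RPL17, RPL21, RPL37A and RPL39. The widest spans, 10.93 for RPLP2, 9.65 for RPL9, 7.86 for RPL6 and 6.40 for RPL39, each came from a probe whose accession was not a RefSeq transcript. The other 4 spans, from 3.05 for RPL21 to 4.69 for RPL37A, lay among RefSeq probes.

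The accession behind a probe therefore mattered. All 146 probes designed on RefSeq transcripts were detected in the pellet and 115 of them in the supernatant, and these 115 had differences between 6.85 and 12.82 before scaling (median 10.20). Of the 26 probes on other accessions, 17 were detected in the pellet and 7 in the supernatant, with differences from -1.01 to 9.79 (median 4.66). Of 9 probes on 1 family of sequence tags, whose accessions begin with DV, 6 were detected on neither array. The tags for RPL4, RPL7A, RPL28, RPL30, RPL35 and RPL37A were the undetected ones. Whether those tags carry sequence of the named gene was not tested.

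Orientation was the second property. By their coordinates 137 probes ran the same way as the gene's RefSeq probes and 9 the opposite way, and for 26 there was no strand to compare. None of the 9 was a RefSeq probe. They were named for RPL3, RPL10, RPL12, RPL27, RPL31, RPL35A, RPL38, RPLP0 and RPLP2. In the pellet 7 of the 9 were detected, with the RPL31 and RPL38 probes the exceptions, and in the supernatant only the RPLP2 tag was. The RPL10 pair shown above illustrates this. The probe in transcript orientation (chrX:23718039-23718098) had log2 signals of 15.37 in the pellet and 3.35 in the supernatant and was detected in both. The probe in opposite orientation (chrX:23718027-23718087) had 10.14 in the pellet, where it was detected, and 1.02 in the supernatant, where it was not. Whether RNA of the opposite strand, or copies of both strands made in labelling, gave the pellet signal was not tested.

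Position in the transcript was the third. RefSeq probes were sorted by how many bases they start upstream of the last probe of the same transcript. In the pellet all were detected at every distance. The dimmest had a log2 signal of 7.36 there, while the lowest detected pellet signal was 11.27 before taking logs. Pellet detection was thus at its ceiling and could hardly show a fall. Pellet signals did vary along transcripts. In RPL3 they went from 15.60 at position 1182 down to 11.64 at position 144, and in RPL35 from 12.38 at position 874 up to 16.003 at position 229. In the supernatant 83 of 89 probes (93.3%) were detected within 99 bases of the last probe, 22 of 27 (81.5%) from 100 to under 300 bases, and 10 of 30 (33.3%) at 300 bases or more. For the small subunit genes the same shares were 89.4%, 83.3% and 60%. Over all named genes, among probes detected in the pellet, they were 24.3%, 17.8% and 13.7%. The fall was therefore seen in all 3 sets, and whether its size differs between them was not tested. The 30 large subunit probes at 300 bases or more came from 13 genes and include the 6 upstream probes of RPL15, whose distances are doubtful. Most of the 30 were dimmer in the pellet than the mean of their transcript's end probes, while those of RPL7 and RPL35 and some of RPL15 were brighter. Whether the dimmer signal had a part in the low supernatant share was not tested.

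**Figure D3:**
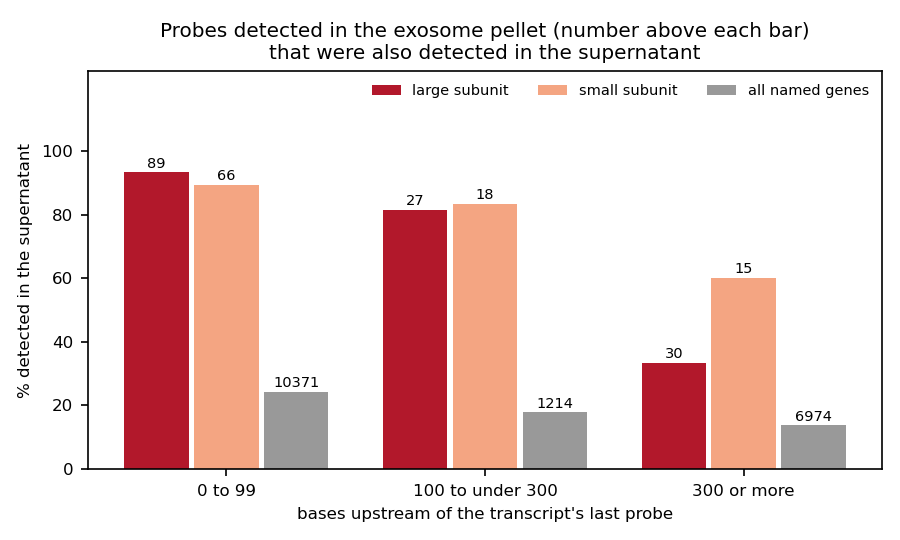
Percentage of RefSeq probes detected in the pellet that were also detected in the supernatant (vertical axis), by bases upstream of the transcript's last probe, for large subunit genes, small subunit genes and all named genes; the number above a bar is the number of probes. The large subunit bars fall from 93.3% to 33.3%.

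Where a probe was still measured on both arrays, the difference grew with distance from the end. Its median before scaling was 9.93 (83 probes, quartiles 8.96 and 10.77) within 99 bases, 11.10 (22 probes, 10.04 and 11.49) from 100 to under 300 bases and 11.82 (10 probes, 10.73 and 11.99) beyond. The small subunit medians rose in the same way, from 10.41 to 11.30 and 12.35. Over all named genes the medians were 4.23, 5.33 and 2.63. Only probes above background in the supernatant enter these medians.

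The comparison could also be made within transcripts, which holds the named gene fixed. In 27 large subunit transcripts an end probe (within 99 bases of the last) was measured on both arrays and an upstream probe (100 bases or more) was detected in the pellet. The upstream difference, taken at its bound where the supernatant was not detected, was larger than the end difference in 23 of the 27, against 29.9% of the 1041 transcripts of all named genes. In the other 4 (RPL3, RPL5, RPL10A and RPL15) the bound was too low to settle it, as it was in 653 of the 1041. In 77 of the 1041 the upstream difference was smaller. A bound can only count as larger or leave the call unsettled, and a brighter pellet signal raises it. No upstream probe was detected in the supernatant in 10 of the 27 and in 776 of the 1041. How far brightness sets the gap between the 2 shares was not tested. Where both kinds of probe were measured, the upstream difference was larger in 17 of 17 large subunit transcripts, by a median of 1.47, and in 11 of 11 small subunit transcripts, by a median of 2.28. The share over all named genes was 43.8%, or 116 of 265 transcripts. RPL15 is among the 17 as well as the 4. Its 2 upstream probes measured on both arrays gave a mean of 11.23, against 9.93 at its end, but its other upstream probes had low bounds. Its distances are doubtful, as described below.

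The RPLP0 probes printed above show the contrast. The end probe had log2 signals of 16.84 in the pellet and 6.80 in the supernatant, a difference of 10.04. The upstream probe at position 501 had 16.04 in the pellet and 1.21 in the supernatant, where it was not detected, a difference of at least 12.86. That upstream probe was thus bright in the pellet and not well above background in the supernatant. The other upstream RefSeq probe of RPLP0, at position 109, had 13.37 in the pellet and a difference of at least 10.19. The mean over both upstream probes was at least 11.53, against 9.90 for the 2 end probes. In RPL17 the 5 end probes had a mean difference of 8.21, the upstream probe at position 298 gave 11.21, and the one at position 191 gave at least 12.01. The RPL29 end probe gave 8.20 and its upstream probe at least 10.40. In RPL10 the 2 end probes had a mean of 10.07 and the 3 upstream probes 12.06. In RPL21 the means were 9.01 and 11.93, and in RPL37A 8.95 and 11.78. The 2 RPL37A end probes disagreed, at 10.81 and 7.08. RPL14, at 11.38 and 11.49, and RPL13, at 8.34 and 8.53, differed little. End and upstream probes are different probes, which had an SD of 1.56 within a gene, over all positions and accessions. The median gap of 1.47 over the 17 transcripts measured by both kinds lies below that SD, so a single pair says little.

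**Figure D4:**
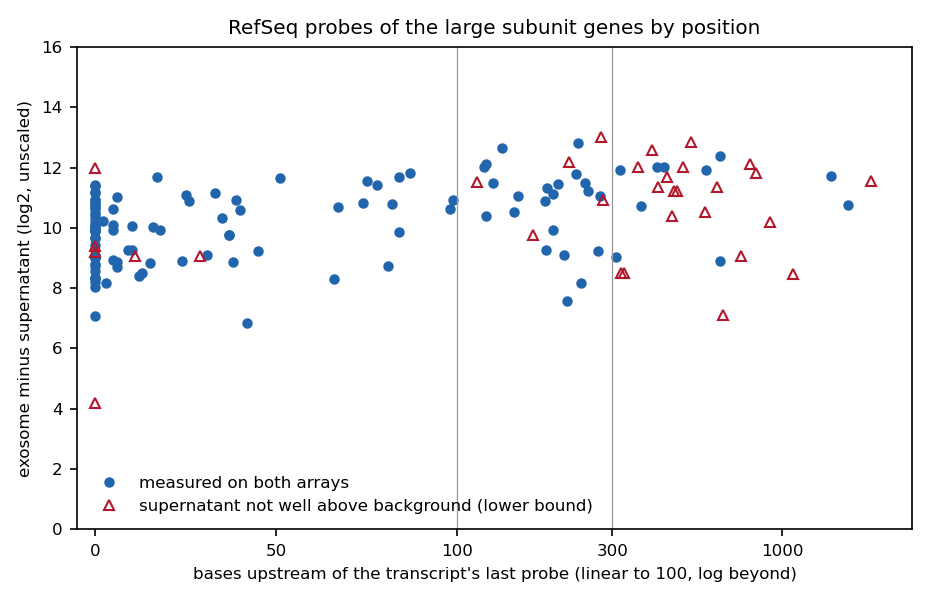
Exosome minus supernatant (log2, unscaled) of each RefSeq probe of the large subunit genes against the bases it starts upstream of the transcript's last probe, on an axis that is linear to 100 and logarithmic beyond; circles are measured on both arrays and triangles are lower bounds. Triangles make up 20 of the 30 probes at 300 bases or more.

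In a few transcripts the distance from the last probe may not be the distance from the end of the RNA. In RPL15 the probe at position 643 gave 16.78 in the pellet and 5.07 in the supernatant, while of 5 probes at positions 1392 to 2049 only the last was detected in the supernatant (3.37). In RPL35 the probe at position 229 carried the whole measurement (16.003 and 3.61), and those at 863 and 874 were detected in the pellet alone (12.23 and 12.38). The last probes of RPL37A and RPL7 were dim in the pellet (11.10 and 12.65) beside the next probes upstream (16.85 and 16.87). RPL28 has a single RefSeq probe, at position 133, so its distance of 0 says nothing of the end. A list median from RefSeq probes within 99 bases of the last was 5.91 (41 genes), and from those 100 bases or more upstream it was 8.36 (18 genes), each against the median gene by the same kind of probe. The median gene itself was 4.02 by the first kind of probe and 2.89 by the second, and the genes covered differ, so only part of the gap between 5.91 and 8.36 goes with probe position. The values within transcripts above hold the named transcript and the reference fixed, but not the sequence a probe shares with other probes, as described below. Measurements of RNA integrity were not used here, and the part of RNA length in these values was not tested.

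Copies of these genes are a further limit on single values. Of the 172 probes, 47 share a run of 16 bases with a probe not named for the same gene. Probes with no gene name are counted among those, so a match need not be another gene or a copy. The 40 of the 47 measured on both arrays had a median difference of 9.17, against 10.62 for the 82 measured probes that share none. The 3 probes of RPL17 with most such matches are among its end probes. In RPL17, RPL21 and RPL10 every end probe shares such a run and no upstream RefSeq probe does. In RPLP0 and RPL13 only upstream RefSeq probes do, and in RPL14, RPL29 and RPL37A none does. Whether this sharing had a part in the gaps between end and upstream probes was not tested. Where a match is a copy, which copy gave the signal cannot be told apart by these probes.

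The nearest relatives give the setting. Of 32 small subunit genes, 32 were detected in the pellet and 30 in the supernatant, and the relative differences of the 30 ran from 5.67 (RPS15A) to 9.002 (RPS27A), with a median of 7.22. The lower quartile of the large subunit genes, 5.67, was thus level with the lowest small subunit gene, and the highest values were alike. Whether the 2 subunits differ cannot be tested with 1 array a fraction. Of the paralogs, RPL36AL stood at 7.76 by its only probe and RPL22L1 at 1.31, from probes at 1.57 and 7.89 before scaling. RPL3L, RPL7L1, RPL10L and RPL26L1 were detected in the pellet alone. All 46 genes of the mitochondrial large subunit, which makes proteins inside mitochondria, were detected in the pellet and 11 in the supernatant, and the 11 had a median of 3.59, from -2.65 (MRPL52) to 6.42 (MRPL2), with 8 at least 2-fold above the median gene. Of 29 genes that assemble the 60S subunit in the nucleus and cytoplasm, 29 were detected in the pellet and 5 in the supernatant, and the 4 measured by the same probe had a median of 1.90, with SBDS highest at 3.14 and NLE1 lowest at -0.34. These medians leave out the genes undetected in the supernatant, which were few among the ribosomal genes and most of the other lists.

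**Figure D5:**
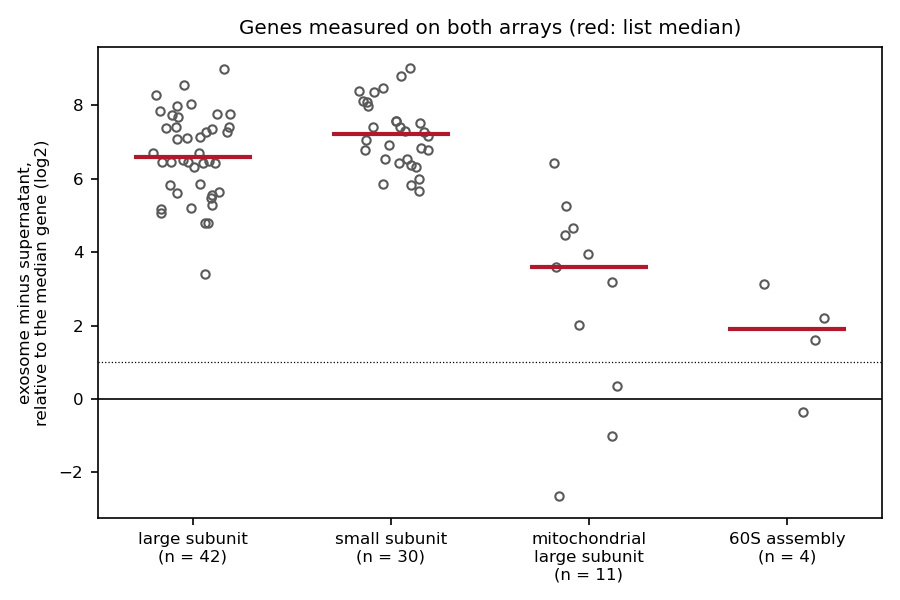
Exosome minus supernatant (log2, relative to the median gene) for the genes of 4 lists measured on both arrays; points are genes, red lines list medians, and the dotted line is 2-fold. The 42 large subunit genes (median 6.59) and the 30 small subunit genes (median 7.22) overlap from 5.67 upward, above most of the 11 mitochondrial (median 3.59) and the 4 assembly genes (median 1.90).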

How the data were processed

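What the authors deposited per array is intensity, namely the processed signals of Agilent Feature Extraction 10.7.3.1 (submitters' processing notes), corrected for background and spatial trend on each array with no scaling from one array to the other, per the file headers. Flags and probe positions were used as deposited. Further processing by the authors: not given in the sources used here. The authors' deposited table holds log2 values that equal the log2 of those signals for 43602 probes with 1 spot (largest gap 1.9e-06), so it is neither scaled nor centred. The labelling kit named in the labels primes copying from the poly(A) tail.

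Control and outlier spots were left out (no large subunit spot was an outlier or saturated) and spots of 1 probe averaged, which left 43652 probes, 35130 with a gene name. Names are those of the files. Each gene was summarised by averaging the probes detected in both fractions, and the size call was 2-fold. Full values were given for the 3 highest and 3 lowest genes, those not measured on both arrays, those whose probes span over 3 log2 units and the role groups. Positions are the files' transcript positions: in 53 of 66 overlapping pairs of RefSeq probes the step between them matched the step in sequence, at 90% or more of bases. The number of arrays limits the precision. Alternatives were other scalings, normexp background (limma 3.58.1, offset 50), detection rules and choices of probe. The summary was tested on simulated data in which every probe counted as detected in the supernatant. Noise there was nearer to that between spots than to that between probes. That test therefore says nothing of undetected probes or of disagreement between probes. Members and lists were chosen with earlier results of these data known. Python 3.11.15, pandas 2.3.3 and R 4.3.3 were used.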

Additional observations from a re-analysis of the deposited data

How the results depend on the processing

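No large subunit gene changed sides of the median gene under any of the alternatives run, and 320 of the 573 single-gene values moved by less than the SD between spots. Those 320 include every value with outlier spots kept and every value from the authors' deposited table, settings that could hardly move a value. No large subunit spot was an outlier, and that table equals the signals used here. The 320 are therefore no measure of stability. Requiring all probes of a gene to be detected left 969 of all named genes measured on both arrays, against 3537 by the main rule. It cut the large subunit genes detected in the supernatant, measured on both arrays and at least 2-fold above the median gene to 16 each, with a list median of 6.89. The median was 7.07 with no filter on dim probes, 6.32 with the brightest probe per gene, 6.85 with the median of probes, 6.93 with normexp and 6.92 with quantile normalization. Among probe choices added after the data were seen, it was 6.85 with RefSeq probes, 5.91 with those within 99 bases of the last and 8.36 with those further upstream, which covered 28 genes in the pellet and 18 in the supernatant, measured on both and at least 2-fold above. Over all named genes 10106 were measured on both arrays by the weaker detection flag and 1327 by the stricter rule. With the weaker detection flag 44 large subunit genes were detected in the supernatant, against 36 by the stricter rule, and RPL7A stood at 0.91, its undetected tag probe then entering the mean. By that flag RPL4, RPL34 and RPL35 also fell, to 4.03, 4.55 and 4.27. Others rose, such as RPL18 to 8.14 and RPL29 to 6.66. The scaled median of 4.56 was 10.01 with no scaling, 6.52 with array medians, 7.74 with spike-ins and 4.15 with quantile normalization, which left 41 of 42 genes at least 2-fold higher. The log2 bounds of RPL22 and RPL28, averaged over probes, were 7.77 and 11.97 with no scaling, 4.28 and 8.48 with array medians and 5.50 and 9.70 with spike-ins. Probes coding in sense by protein match were not run, as no protein table was used here. No paired analysis was possible because each fraction has 1 array. Signal over background limits the supernatant values: the median supernatant signal of these genes was 5.83 (log2) and the lowest detected signal on that array was 9.04 before taking logs.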
